A study of Danio rerio with 20 samples.

Results

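The members examined here were 10 of 32520 gene rows, zebrafish genes of glutamine synthesis, glutamate deamination, ammonia transport and the urea cycle, measured in livers of adult zebrafish with hepatocellular carcinoma (HCC) driven by activated β-catenin. They were the GLUL rows ENSDARG00000099776 and ENSDARG00000100003, chosen by identifier, and ass1, asl, cps1, otc, arg1, arg2, glud1b and rhbg, chosen by symbol with case ignored, with 1 row for each symbol. GLUL encodes glutamine synthetase, and the name table gave the same symbol to both rows, so which of the zebrafish paralogs each one is was not told from it, and reads that both share may be split between them. The rule that picks the rows used no measured value, but the members were chosen with earlier results of these data known.

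Bulk liver RNA-seq libraries of 20 male zebrafish were compared in 5 groups from 2 experiments. CreLox zebrafish carried Tg(fabp10a-CreERT2;fabp10a-flox-beta-catenin), in which the hepatocyte promoter fabp10a drives both a 4-hydroxytamoxifen-inducible Cre and, once a floxed cassette is removed, activated β-catenin. As larvae they were given 10 µM 4-hydroxytamoxifen between days 3 and 6 after fertilization, and they were taken at 11 months post fertilization (mpf), 4 with HCC (fish 604, 605, 623 and 624) and 2 without HCC (fish 609 and 625). Their 4 controls (fish 621, 622, 628 and 630) carried Tg(fabp10a-CreERT2) alone, received 0.1% ethanol as larvae and had no HCC at 11 mpf, so that transgene and tamoxifen cannot be told apart between these groups. HepABC zebrafish carried Tg(fabp10a-pt-beta-catenin), which expresses activated β-catenin in hepatocytes without a switch. The 5 with HCC (fish 317E5, 317E6, 317E9, 317E10 and 317E11) and 5 wild-type, non-transgenic controls free of HCC (numbered 317C1, 317C2, 317C4, 317C5, 317C8) were untreated and were taken at 6 mpf. A portion of every liver went to histology and the remainder gave the RNA.

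In most adult teleosts nitrogen leaves the body mainly as ammonia across the gills, and urea is made chiefly by arginase and by breakdown of uric acid rather than by a full liver urea cycle. In mouse liver, periportal hepatocytes hold the urea cycle enzymes, while glutamine synthetase is confined to hepatocytes around the central vein, where Wnt/β-catenin signalling is active. In mouse and human liver tumors, strong glutamine synthetase is used as a marker of β-catenin activation.

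Library totals ranged from 20903187 to 37994885 counts, and levels are given as CPM, counts relative to a library size that was scaled by TMM over all 20 libraries. The summed CPM of 8 hepatocyte marker rows was high in every library, with none at 0, and lay between 110900 and 131400 in CreLox HCC, 114900 and 152800 in CreLox without HCC and 117500 and 226200 in Cre driver controls. It was 30200 to 62770 in HepABC HCC and 178500 to 227400 in non-transgenic controls. Sums over 6 biliary marker rows were 3908 to 7298 CPM in HepABC HCC against 823.8 to 1997 CPM in non-transgenic controls, and sums over 9 exocrine pancreas rows were 15.2 to 32.1 CPM against 19.2 to 7547 CPM. In the CreLox experiment the pancreas sums were 18.6 to 59.3 CPM in HCC, 9.17 to 224.9 CPM without HCC and 53.3 to 650 CPM in controls, and the biliary sums were 1494 to 3194, 1600 to 2199 and 885.1 to 1440 CPM, every HCC liver lying above every control. Sums over 5 stellate and endothelial rows were 70.8 to 99.3 CPM in CreLox HCC, 76.1 to 84.3 CPM without HCC and 104.4 to 130.8 CPM in Cre driver controls, and 32.4 to 47.8 CPM in HepABC HCC against 95.4 to 125.1 CPM in non-transgenic controls, again without overlap between HCC and controls. Sums over 16 macrophage and neutrophil rows overlapped in both experiments, at 75.2 to 99.5 CPM in CreLox HCC against 87.1 to 158.1 CPM in Cre driver controls and 66.5 to 206.2 CPM in HepABC HCC against 95.5 to 440.4 CPM in non-transgenic controls. Sums over 4 intestine rows were 420 to 670.3 CPM in HepABC HCC and 885.8 to 1937 CPM in non-transgenic controls, without overlap. In the CreLox experiment they overlapped, at 985.4 to 2124 CPM in HCC and 549.4 to 1249 CPM in controls. The 10 most abundant genes took 11.4% to 15.5% of counts in HepABC HCC and 22.8% to 26.1% in non-transgenic controls. What these differences contribute to the values of the members was not tested, and in bulk tissue fewer cells of a type and less RNA per cell cannot be told apart.

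Much of the urea cycle was at or near 0 in these livers. cps1, whose product starts the cycle by making carbamoyl phosphate, had 0 counts in 20 of 20 livers, which allows up to 0.00506 CPM over all libraries if 3 counts are taken as the limit of a count of 0. This limit covers counting error alone, since reads are not independent molecules. otc, ornithine transcarbamylase, had 3 counts in all, 1 each in HepABC fish 317E10 and in non-transgenic fish 317C2 and 317C4. arg1, the arginase that is the cytosolic liver form in mammals, had 12 counts, all of them in Cre driver control 628 (0.405 CPM), and 0 in the other 19 livers. N-acetylglutamate synthase (NAGS), which makes the activator of carbamoyl phosphate synthetase and is no member, had at most 3 counts in any liver.

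ass1 (argininosuccinate synthase) differed from these in that its few counts came mainly from HepABC tumors. Its counts in HepABC HCC were 23 (317E5), 21 (317E6), 0 (317E9), 45 (317E10) and 56 (317E11), equal to 0.435, 0.376, 0, 0.901 and 1.22 CPM. Among non-transgenic controls 317C8 had 1 count and the other 4 had 0. The HepABC HCC livers averaged 0.587 ± 0.478 CPM (SD, n = 5), and 4 of 5 tumors were above 3 counts. This mean was 4.71-fold the control level when every non-transgenic control library is placed at 3 counts. That placing bounds the control side alone and leaves out the spread of the tumors. Tumor 317E9, with 0 counts, lay within the control range. The gene was too low for the filter on low counts in this experiment and so was not among the genes tested. Under other settings a filter can keep it only through the tumors, where it is high, so that no test of it is given in support of a difference. In the CreLox experiment the highest liver was again Cre driver control 628 with 27 counts (0.912 CPM), and the other 9 livers had 0 to 2 counts.

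**Figure D1:**
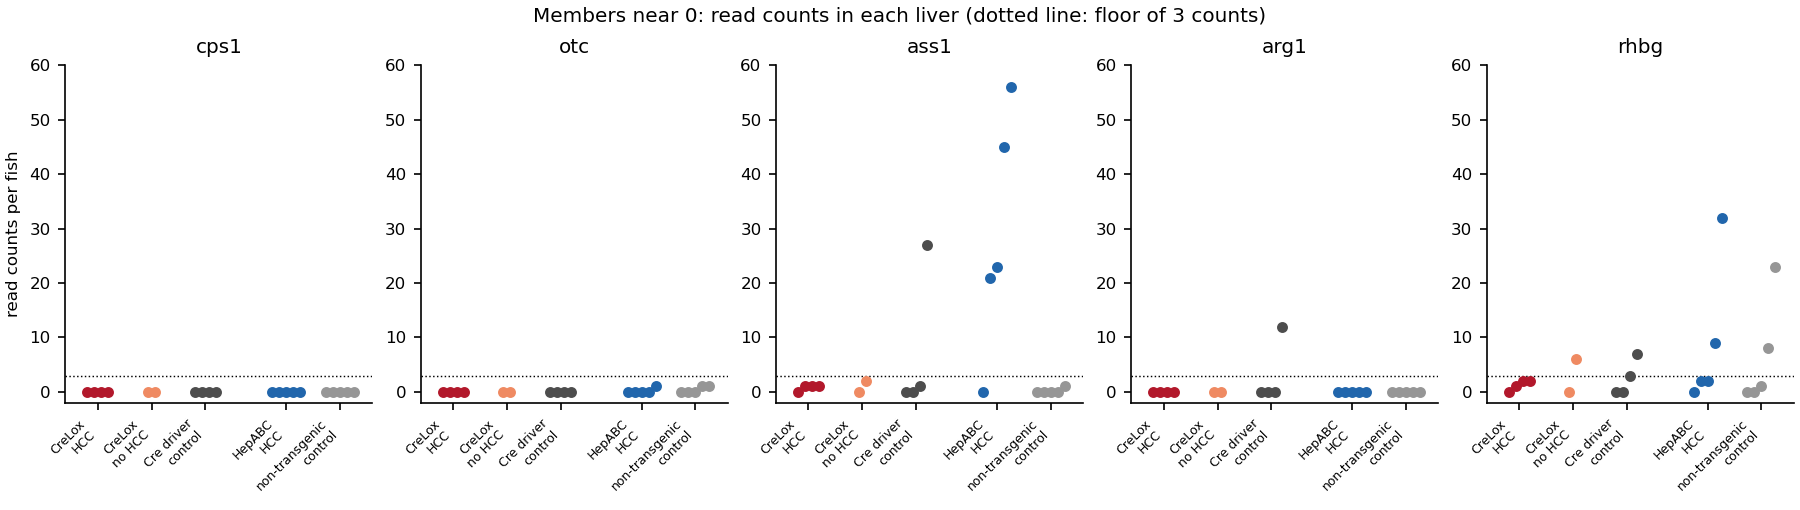
Read counts of cps1, otc, ass1, arg1 and rhbg (vertical axes, linear) in each of the 20 livers, 1 point per fish, by group. The dotted line marks 3 counts. ass1 exceeds it in 4 of 5 HepABC HCC livers and in 1 Cre driver control, arg1 exceeds it in 1 Cre driver control, and cps1 is at 0 throughout.

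rhbg, an ammonia channel of the Rh family that in mouse liver sits with glutamine synthetase in pericentral hepatocytes, was also near 0, with 98 counts over 20 livers. CPM in HepABC HCC was highest in 317E6 at 0.573 and in 317E11 at 0.196, and at most 0.040 in the other 3. In non-transgenic controls it was highest in 317C1 at 0.836 and in 317C2 at 0.330, and at most 0.035 in the other 3. In the CreLox experiment the highest values were 0.272 in fish 609 without HCC and 0.318 in control 621, and the 4 HCC livers were at 0 to 0.092. Levels therefore overlapped between groups in both experiments, and rhbg passed the filter only in the fit of all 20 libraries.

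The 5 remaining members, both GLUL rows, arg2, asl and glud1b, had counts in every liver and passed the filter in both experiments. None of the 5 passed an adjusted p of 0.05 in any of the 4 comparisons between groups by edgeR's quasi-likelihood test with Benjamini-Hochberg adjustment over all genes tested. The shares of all genes given next are at this adjusted threshold. No share of all genes at an unadjusted p was computed, so members counted at an unadjusted p have no share to be set against. In CreLox HCC against Cre driver controls, 4.2% of all genes tested passed the adjusted threshold in either direction. At an unadjusted p under 0.05 were 2 of the 5 members (GLUL ENSDARG00000100003 and arg2). DESeq2's Wald test called the same 2, with 2049 of 25658 rows called over all genes, and limma's voom called 0. In CreLox without HCC against the same controls, 0.315% of genes passed the adjusted threshold. There 1 member had an unadjusted p under 0.05 (arg2), and DESeq2 and voom called 0. In CreLox HCC against CreLox without HCC, with 0.00594% of genes passing, there were 0 by all 3 counts. In HepABC HCC against non-transgenic controls, 33.7% of genes passed the adjusted threshold. There 1 of the 5 had an unadjusted p under 0.05 (GLUL ENSDARG00000100003). DESeq2 called this row, beside ass1, for which the limit above holds, with 6734 of 25832 rows called over all genes. voom called arg2, with 5918 of 15864 called over all genes. On library size alone 4 of the 5, all but GLUL ENSDARG00000099776, passed as higher in HepABC HCC, on a scale where the median gene had a log2 fold change of 0.87, in place of 0 with TMM.

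**Figure D2:**
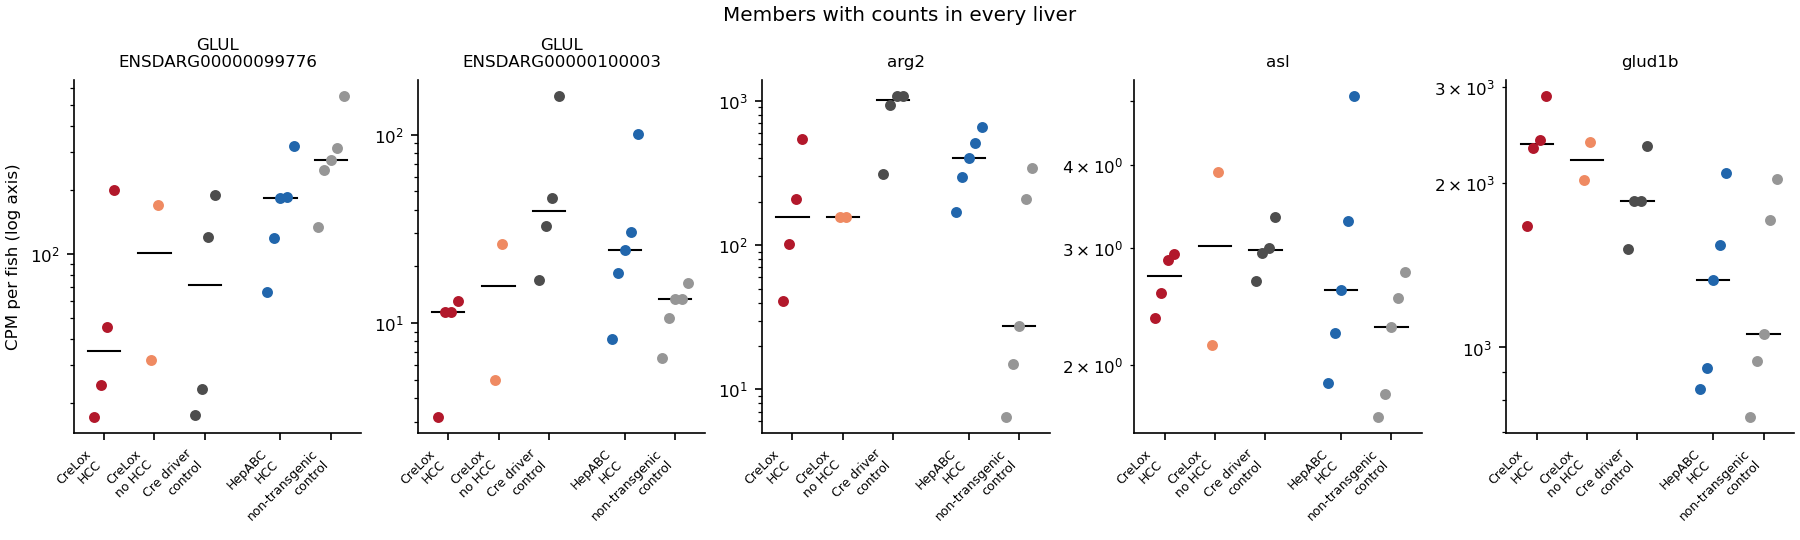
CPM of the 5 members with counts in every liver (vertical axes, log scale), 1 point per fish and a bar at each group's median. GLUL ENSDARG00000100003 and arg2 lie lower in CreLox HCC than in Cre driver controls by median, and higher in HepABC HCC than in non-transgenic controls by median.

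The 2 glutamine synthetase rows had different patterns over the groups. GLUL ENSDARG00000100003 had 3.19 (604), 13.1 (605), 11.4 (623) and 11.4 (624) CPM in CreLox HCC, 26.4 (609) and 5.01 (625) CPM in CreLox without HCC, and 46.3 (621), 17.0 (622), 161 (628) and 32.9 (630) CPM in Cre driver controls. Every CreLox HCC liver was below every control, and fish 609 without HCC lay within the control range. Groups failed to overlap in this comparison for 14.1% of all genes tested and for 1 of the 5 members. The log2 fold change was -2.76 (SE 0.78, unadjusted p = 0.00539, adjusted p = 0.0756 by edgeR), with a 95% interval from -4.50 to -1.02. Without control 628, the highest liver, it was -1.73 with an adjusted p of 0.150, and DESeq2's Wald test on all fish gave -2.74 with an adjusted p of 0.00238. In CreLox without HCC against controls the log2 fold change was -2.07 (SE 1.00, adjusted p = 0.525 by edgeR), and HCC against no HCC within CreLox gave -0.68 with an interval from -2.65 to 1.28.

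In the HepABC experiment the same row had 8.23 (317E5), 24.3 (317E6), 30.3 (317E9), 18.5 (317E10) and 101 (317E11) CPM in HCC, against 16.3 (317C1), 10.7 (317C2), 13.5 (317C4), 13.5 (317C5) and 6.53 (317C8) CPM in non-transgenic controls. Tumor 317E5 lay within the control range and the other 4 lay above it. The log2 fold change was 1.56 (SE 0.57, unadjusted p = 0.0188, adjusted p = 0.0543 by edgeR), with an interval from 0.31 to 2.81. It depended on 317E11, the highest tumor, without which it was 0.71 with an adjusted p of 0.181, and it reached an adjusted p of 0.0194 without 317E5.

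The difference between the 2 models was itself tested in 1 fit of all 20 libraries, in which 7 members passed the filter and 11.3% of all genes tested passed. For GLUL ENSDARG00000100003 the HepABC change exceeded the CreLox HCC change by 4.31 on the log2 scale (SE 1.01, interval 2.19 to 6.43, adjusted p = 0.0126 by edgeR), and it passed with each of the 18 fish of these 4 groups left out in turn, the lowest value being 3.30 without control 628. ass1, kept in this fit through the HepABC tumors, had a fitted difference of 8.70, which at counts near 0 is no bound, and it was 5.02 without control 628, so its test is not given in support of a difference. arg2 had a difference of 3.68 (SE 1.28, adjusted p = 0.0689 by edgeR), with an adjusted p of 0.0442 without tumor 624 and 0.0273 without control 317C1. With other fish left out the adjusted p was up to 0.121, and 6 of 24 alternatives called it. GLUL ENSDARG00000099776, asl, glud1b and rhbg had differences between -0.51 and 0.67 with adjusted p from 0.337 to 0.864. The control groups differed as well. GLUL ENSDARG00000100003 averaged 64.3 CPM in Cre driver controls and 12.1 CPM in non-transgenic controls, and every Cre driver control lay above every non-transgenic control. arg2 averaged 854 and 121 CPM in these groups. The difference between the models therefore includes that between their controls and is not one between tumors alone. Age, larval treatment, duplicate removal and experiment differ together with the model here and cannot be told apart from it.

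GLUL ENSDARG00000099776 varied more within groups than between them in the CreLox experiment. It had 24.3 (604), 45.5 (605), 17.2 (623) and 199 (624) CPM in CreLox HCC, 169 (609) and 31.6 (625) CPM in CreLox without HCC, and 189 (621), 120 (622), 17.6 (628) and 23.2 (630) CPM in Cre driver controls. The 10 livers thus fell in a low range of 17.2 to 45.5 CPM and a high range of 120 to 199 CPM, each of which held livers of all 3 groups. The 4 livers in the high range, 624, 609, 621 and 622, were also those with a TMM factor under 1, at 0.865, 0.926, 0.736 and 0.758. Within each group they also had the higher hepatocyte marker sums, in controls 226200 (621) and 208400 (622) against 132700 (628) and 117500 (630) CPM. Over all genes, chi-square per degree of freedom between libraries was 59.7 for 621 with 622, 87.3 for 628 with 630 and 149 to 175 across these pairs. The split was thus not confined to this row, and what links these values was not tested. The log2 fold change of CreLox HCC over controls was -0.31 (SE 0.95, adjusted p = 0.867 by edgeR), with an interval from -2.43 to 1.81 that covers changes of either sign, and it lay between -1.61 and 0.39 with each fish left out. It was 0.18 for CreLox without HCC over controls and -0.49 for HCC over no HCC, with similarly wide intervals from -2.39 to 2.76 and from -3.04 to 2.06. In HepABC HCC the row had 66.4 (317E5), 186 (317E6), 183 (317E9), 118 (317E10) and 319 (317E11) CPM, against 277 (317C1), 552 (317C2), 134 (317C4), 248 (317C5) and 315 (317C8) CPM in non-transgenic controls. These ranges overlapped, with a log2 fold change of -0.84 (SE 0.43, adjusted p = 0.160 by edgeR) and an interval from -1.79 to 0.11, and on library size alone it was 0.04. The third zebrafish glutamine synthetase gene in the name table, glulc, had at most 5 counts in any liver.

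The order of the group means of GLUL ENSDARG00000099776 was non-transgenic controls at 305 ± 154, HepABC HCC at 175 ± 94.9, CreLox without HCC at 100.5 ± 97.4, Cre driver controls at 87.4 ± 82.3 and CreLox HCC at 71.5 ± 85.9 CPM (SD, n = 5, 5, 2, 4 and 4). Neighbours in this order differed by less than the larger of their SDs. For GLUL ENSDARG00000100003 the order was Cre driver controls at 64.3 ± 65.6, HepABC HCC at 36.4 ± 36.9, CreLox without HCC at 15.7 ± 15.2, non-transgenic controls at 12.1 ± 3.68 and CreLox HCC at 9.78 ± 4.47 CPM, and the same held for its neighbours. Over the 20 livers, the genes most like GLUL ENSDARG00000099776 in log2 CPM among 11826 genes were ENSDARG00000099719 (Pearson r = 0.877), nfu1 (0.863) and hif1al (0.861). Those most like GLUL ENSDARG00000100003 were NIF3L1 (0.793), slc25a55a (0.737) and HSP90AA1 (0.734). After group means were removed r was 0.793, 0.781 and 0.856 for the first 3, and 0.844 for NIF3L1, 0.544 for slc25a55a and 0.67 for HSP90AA1. hif1al shared the spread within the CreLox experiment, at 6.35 to 179 CPM in HCC and 11.7 to 553 CPM in controls. These correlations describe libraries that share groups and depth, and carry no test.

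**Figure D3:**
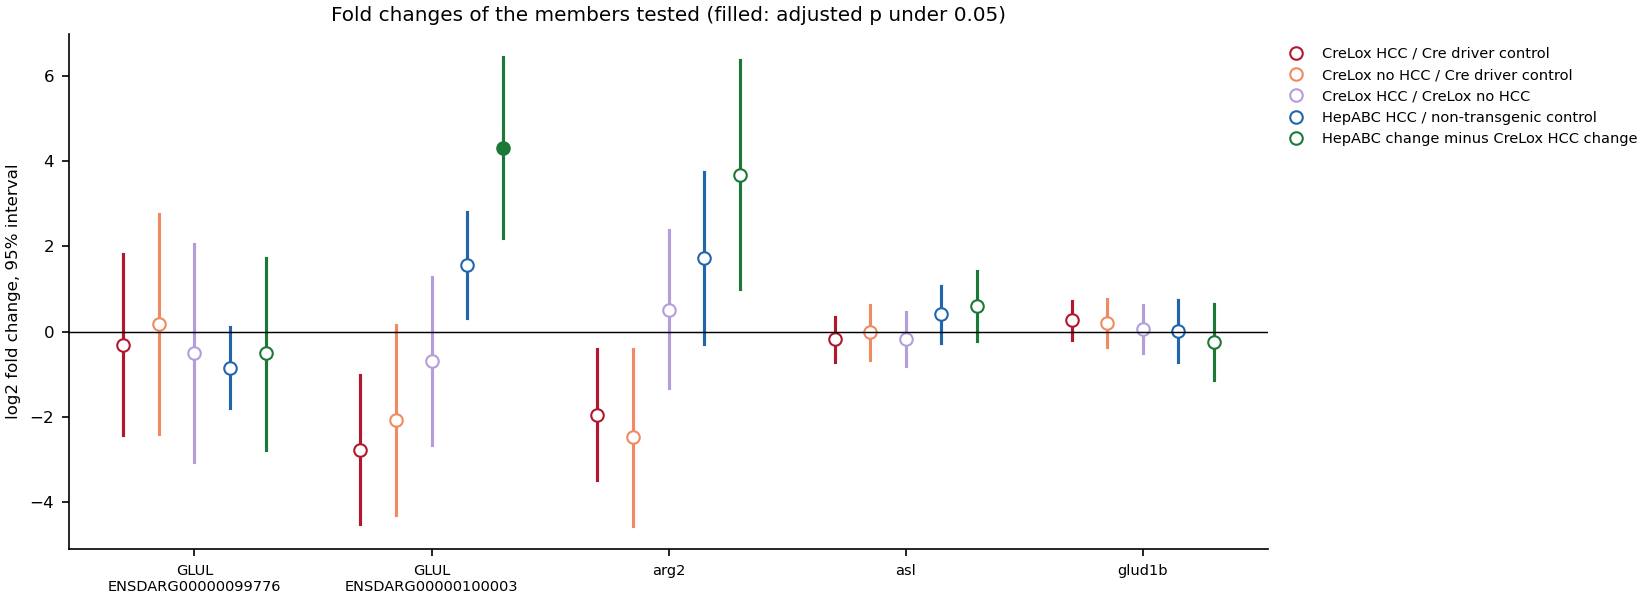
Log2 fold changes (vertical axis) of the 5 members tested in every fit, with 95% intervals, for 4 group comparisons and for the difference between the models. Filled points passed an adjusted p of 0.05, which was the case for the difference of GLUL ENSDARG00000100003 alone among those drawn, at 4.31.

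arg2, the arginase that is mitochondrial in mammals and releases urea and ornithine from arginine, was the arginase with counts in every liver. It had 209 (604), 102 (605), 41.3 (623) and 548 (624) CPM in CreLox HCC, 156 (609) and 157 (625) CPM in CreLox without HCC, and 939 (621), 1081 (622), 312 (628) and 1086 (630) CPM in Cre driver controls. In CreLox HCC 3 livers lay below every control, and 624 lay above control 628. The log2 fold change was -1.95 (SE 0.69, unadjusted p = 0.0178, adjusted p = 0.129 by edgeR), with an interval from -3.48 to -0.41, and without tumor 624 it was -2.87 with an adjusted p of 0.0287. With each fish left out it lay between -2.87 and -1.60, with adjusted p up to 0.268 by edgeR, and 2 of 18 alternatives called it. Both CreLox livers without HCC lay below every control, and groups failed to overlap in that comparison for 1 of the 5 members and 18% of all genes tested. The log2 fold change there was -2.47 (SE 0.93, unadjusted p = 0.0236, adjusted p = 0.413 by edgeR), and both comparisons share the 4 controls. HCC against no HCC within CreLox gave 0.52 with an interval from -1.33 to 2.38, and no member's groups failed to overlap there, against 11.3% of all genes tested.

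In the HepABC experiment arg2 had 399 (317E5), 298 (317E6), 657 (317E9), 511 (317E10) and 171 (317E11) CPM in HCC, against 345 (317C1), 210 (317C2), 6.46 (317C4), 27.4 (317C5) and 14.9 (317C8) CPM in non-transgenic controls. The controls spanned 53.3-fold, and 317C1 and 317C2 lay within the tumor range while the other 3 lay below it. The log2 fold change was 1.73 (SE 0.92, adjusted p = 0.171 by edgeR), with an interval from -0.29 to 3.74, and voom with sample weights gave 3.35 with an adjusted p of 0.0220. By edgeR with each fish left out it lay between 1.41 and 2.61, with adjusted p from 0.0542 to 0.275. It was called in 2 of 17 alternatives. Groups failed to overlap for 0 of the 5 members in this comparison and for 23.8% of all genes tested. Exocrine pancreas marker sums in the 5 controls were 7547 (317C1), 1854 (317C2), 2719 (317C4), 794 (317C5) and 19.2 (317C8) CPM. Macrophage and neutrophil sums were 123.7 (317C1), 95.5 (317C2), 398.6 (317C4), 440.4 (317C5) and 215.2 (317C8) CPM, higher in the 3 controls low in arg2 than in the other 2. Biliary sums were split in the same way, at 823.8 (317C1), 859.3 (317C2), 1774 (317C4), 1997 (317C5) and 868.8 (317C8) CPM. So was glud1b in the other direction, at 2040, 1714, 746, 943 and 1060 CPM in the same order. Over all genes, chi-square per degree of freedom between libraries was 90.6 for 317C1 with 317C2 and 63.3 for 317C4 with 317C5. It was 301 for 317C1 with 317C4. The split was thus not confined to 1 cell type or to arg2, and the part of any cell content in it was not tested.

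asl and glud1b had log2 fold changes between -0.18 and 0.41 in both models' comparisons with controls. asl, argininosuccinate lyase, had 2.36 to 2.94 CPM in CreLox HCC, 2.14 and 3.91 CPM in CreLox without HCC and 2.67 to 3.34 CPM in Cre driver controls, with a log2 fold change of -0.18 (interval -0.71 to 0.34) for HCC over controls. In HepABC HCC it had 1.88 to 5.09 CPM, the highest in 317E6, against 1.67 to 2.76 CPM in non-transgenic controls, and the log2 fold change was 0.41 (interval -0.26 to 1.08, adjusted p = 0.333 by edgeR). glud1b, a glutamate dehydrogenase that releases ammonia from glutamate, had 2397 (604), 1669 (605), 2322 (623) and 2894 (624) CPM in CreLox HCC, 2031 (609) and 2384 (625) CPM without HCC and 2337 (621), 1855 (622), 1518 (628) and 1854 (630) CPM in controls. All 3 ranges overlapped, and the log2 fold change of HCC over controls was 0.27 (SE 0.21, interval -0.19 to 0.73, adjusted p = 0.453 by edgeR). In HepABC HCC glud1b had 839 to 2090 CPM, against 746 to 2040 CPM in non-transgenic controls, a log2 fold change of 0.01 with an interval from -0.72 to 0.75. Its paralog glud1a had a log2 fold change of 0.20 in CreLox HCC and 0.71 in HepABC HCC, with adjusted p of 0.661 and 0.196. The median log2 fold change of the 5 members was -0.31 in CreLox HCC and 0.41 in HepABC HCC, beside -0.05 and 0 over all genes tested.

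Around the members, 109 other rows of the same pathways were counted in 12 lists, of which 92 were tested in the CreLox experiment and 91 in the HepABC experiment. In CreLox HCC against Cre driver controls 1 was higher, beside 2.39% of all genes tested, and 5 were lower, beside 1.81%. uraha, which hydrolyses an intermediate of uric acid breakdown, had 119.9 (604), 187.9 (605), 129.3 (623) and 44.24 (624) CPM in CreLox HCC, against 34.0 (621), 27.0 (622), 44.15 (628) and 42.7 (630) CPM in controls. Its log2 fold change was 1.68 (SE 0.39, adjusted p = 0.0422 by edgeR), although fish 624 lay close to the controls. TAT, which moves the amino group of tyrosine to make glutamate, fell by 2.37 on the log2 scale (395 ± 182 CPM in CreLox HCC, against 2007 ± 1056 CPM in controls, SD, n = 4 each, adjusted p = 0.0308 by edgeR). OAT, ornithine aminotransferase, which links ornithine to glutamate and proline, fell by 1.89 (106 ± 40.1 CPM, against 387 ± 219 CPM, adjusted p = 0.0378). SLC1A5, a plasma membrane glutamine transporter, fell by 1.97 (7.38 ± 1.36 CPM, against 28.4 ± 13.8 CPM, adjusted p = 0.0195). slc7a2, a carrier of arginine and other cationic amino acids, fell by 1.52, and OAZ1, antizyme of ornithine decarboxylase, fell by 0.82 (OAZ1 was named after its value was seen). None of the 6 stayed past the threshold when tumor 604, 605 or 623 was left out, and all 6 did when 624 was. Without any other single fish of the experiment 1 to 3 of them stayed past it. With all fish, 4 of the 6 did on library size alone, 5 without a filter and 3 in a fit of all 20 libraries. In CreLox without HCC against controls and in HCC against no HCC, 0 of 92 passed by edgeR, with 12 and 0 at an unadjusted p under 0.05, 1 and 0 by DESeq2, and 0 by voom. Over all genes tested 0.315% and 0.00594% passed the adjusted threshold by edgeR, and the share at an unadjusted p was not computed.

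**Figure D4:**
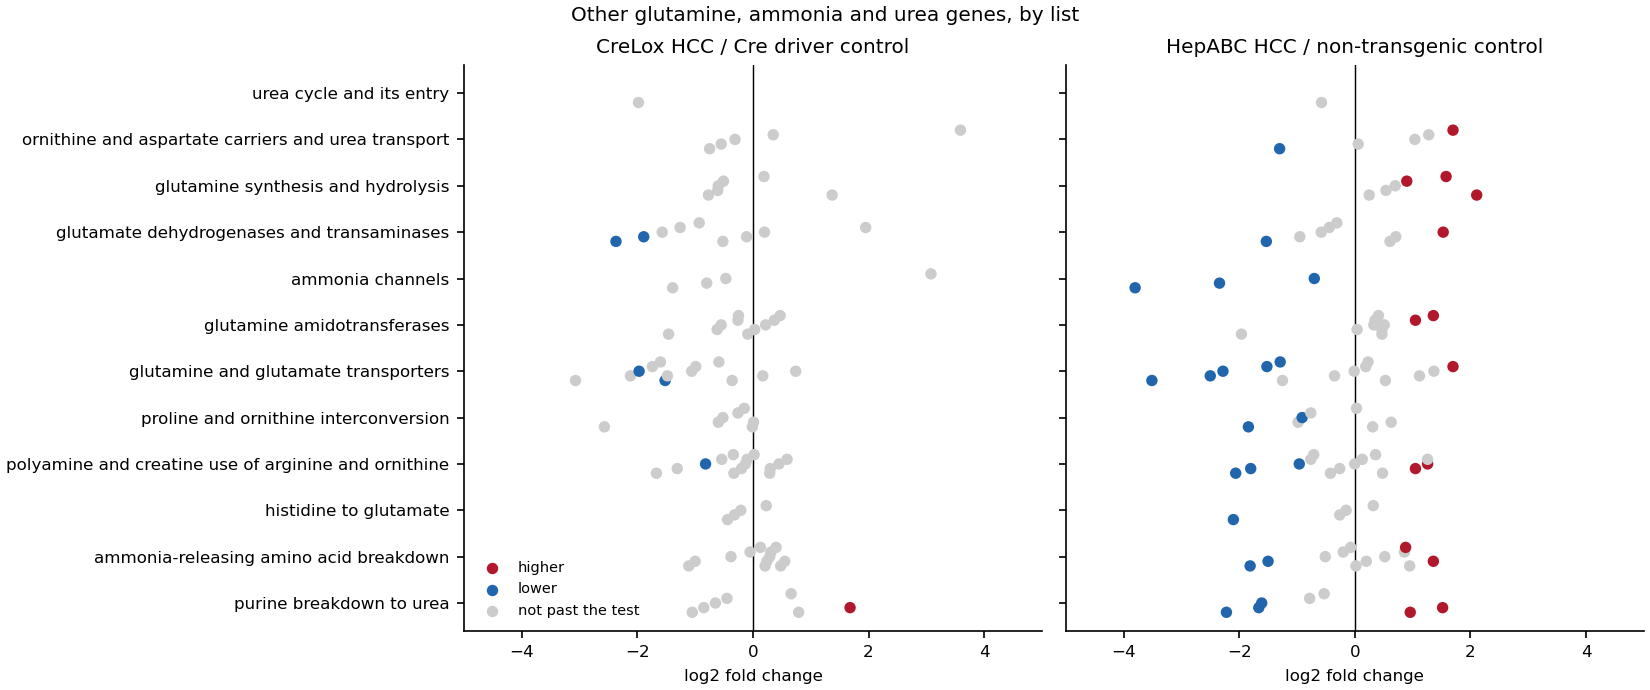
Log2 fold changes (horizontal axes) of the other pathway rows tested, 1 point per row, in 12 lists, for CreLox HCC over Cre driver controls and HepABC HCC over non-transgenic controls. Red and blue points passed an adjusted p of 0.05. In the CreLox panel 1 row is red and 5 are blue, and in the HepABC panel 14 are red and 21 are blue.

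In HepABC HCC against non-transgenic controls 14 of 91 rows were higher, beside 17.4% of all genes tested, and 21 were lower, beside 16.2%. The median of the 91 was 0.03. On library size alone the median of all genes moved to 0.87 and the split became 43 higher and 10 lower, with 7955 higher and 854 lower over all genes in place of 2766 and 2576. Of the 35 rows that passed, 24 passed on that scale too, and 34 kept their sign, AQP8 (a water and ammonia channel, -0.70 with TMM and 0.19 on library size alone) being the exception. Genes named from here on beyond slc7a2, SLC38A3, uox, GPT2, SLC7A3 and SLC25A15 were picked after their values were seen. They are examples, and neither every list nor every row that passed is shown.

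Among carriers of glutamine, glutamate and arginine, 5 of 14 rows tested fell and 1 rose, beside 16.2% and 17.4% of all genes tested. slc7a2 had 59.3 (317E5), 13.6 (317E6), 57.5 (317E9), 43.4 (317E10) and 14.96 (317E11) CPM in HepABC HCC, against 594 (317C1), 447 (317C2), 309 (317C4), 245 (317C5) and 496 (317C8) CPM in non-transgenic controls. No tumor reached a control, and it fell by 3.51 on the log2 scale (SE 0.48, adjusted p = 0.000459 by edgeR), and the HepABC change minus the CreLox HCC change was -1.97 (adjusted p = 0.0403). SLC38A3 ENSDARG00000027065, a system N carrier of glutamine and histidine, fell by 2.28 (54.4 ± 27.8 CPM, against 256 ± 83.5 CPM, n = 5 each, adjusted p = 0.00290). SLC7A3 ENSDARG00000061566, another cationic amino acid carrier, rose by 1.70 (15.6 ± 7.67 CPM, against 4.63 ± 1.16 CPM, adjusted p = 0.00448). The other rows of these symbols, SLC38A3 ENSDARG00000091061 and SLC7A3 ENSDARG00000020645, were not among the rows that passed. In a separate list of ornithine and aspartate carriers and urea transport, 1 of 5 rows tested rose and 1 fell. SLC25A15 ENSDARG00000063539, the mitochondrial ornithine carrier, rose by 1.70 (5.40 ± 3.88 CPM, against 1.62 ± 0.494 CPM, adjusted p = 0.0134). The other SLC25A15 row, ENSDARG00000062271, was not among the rows that passed. The row that fell was slc25a22a, by 1.30 (adjusted p = 0.0117 by edgeR), with -0.42 and an adjusted p of 0.295 on library size alone. Among ammonia channels 3 of 3 rows tested fell with TMM, beside 16.2% of all genes tested. AQP8, with the opposite sign on library size alone, passed in 4 of 10 fits with 1 fish left out. aqp8a.2 (0.226 ± 0.150 CPM, against 3.11 ± 4.81 CPM, with a control median of 0.618 and a highest control of 11.5) fell by 3.80, but had -2.17 with an adjusted p of 0.0628 without control 317C5, and 0.149 by voom. RHAG, the Rh protein of red cells, fell by 2.34 (1.05 ± 0.495 CPM, against 5.18 ± 2.09 CPM, adjusted p = 0.00528), and summed erythrocyte markers, which include it, were 27.9 to 71.7 CPM in HepABC HCC, against 314 to 654 CPM in controls.

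Of 6 rows tested for glutamine synthesis and hydrolysis outside the members, 3 rose and 0 fell. Over all genes tested, 17.4% rose and 16.2% fell, and the counts of the other lists in this paragraph stand beside the same shares. GLS2 ENSDARG00000002917, a glutaminase, rose by 2.11 (56.9 ± 23.5 CPM in HepABC HCC, against 12.7 ± 11.0 CPM in controls, adjusted p = 0.0313 by edgeR) and passed in 6 of 10 fits with 1 fish left out, and the other GLS2 row, ENSDARG00000069095, had 14.7 ± 10.2 CPM, against 12.1 ± 9.35 CPM (adjusted p = 0.800). Reads that such paralogs share may be split between rows. Among 10 glutamine amidotransferase rows, which use glutamine nitrogen for nucleotides and amino sugars, PPAT (1.36) and CTPS1 ENSDARG00000030700 (1.05) rose and 0 fell. The other CTPS1 row, ENSDARG00000098386, did not pass. With 1 fish left out PPAT passed in 3 of 10 fits and CTPS1 ENSDARG00000030700 in 4 of 10, with adjusted p up to 0.0727 and 0.0718. GPT2, the mitochondrial alanine aminotransferase of mammals, rose by 1.53 (4.90 ± 0.688 CPM, against 1.65 ± 0.509 CPM, adjusted p = 0.00157), and OAT fell by 1.53 (adjusted p = 0.0309). OAT overlapped between groups, at 25.5 to 84.5 CPM in HepABC HCC against 55.9 to 302.4 CPM in controls, and lost its call in 7 of 17 alternatives, among them library size alone (-0.69, adjusted p = 0.216), voom (0.07) and 5 of 10 fits with 1 fish left out. Of 7 rows tested in purine breakdown to urea, a list that also covers steps before uric acid, 2 rose and 3 fell. uox, urate oxidase, fell by 2.22 (428.5 ± 261.8 CPM, against 1959 ± 961 CPM, adjusted p = 0.00568), ALLC, allantoicase, fell by 1.66 (adjusted p = 0.00172), and uraha rose by 1.52 (adjusted p = 0.00249), with every tumor above every control. In histidine breakdown AMDHD1, which yields formiminoglutamate, fell by 2.10 and the other 3 rows of 4 did not pass.

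**Figure D5:**
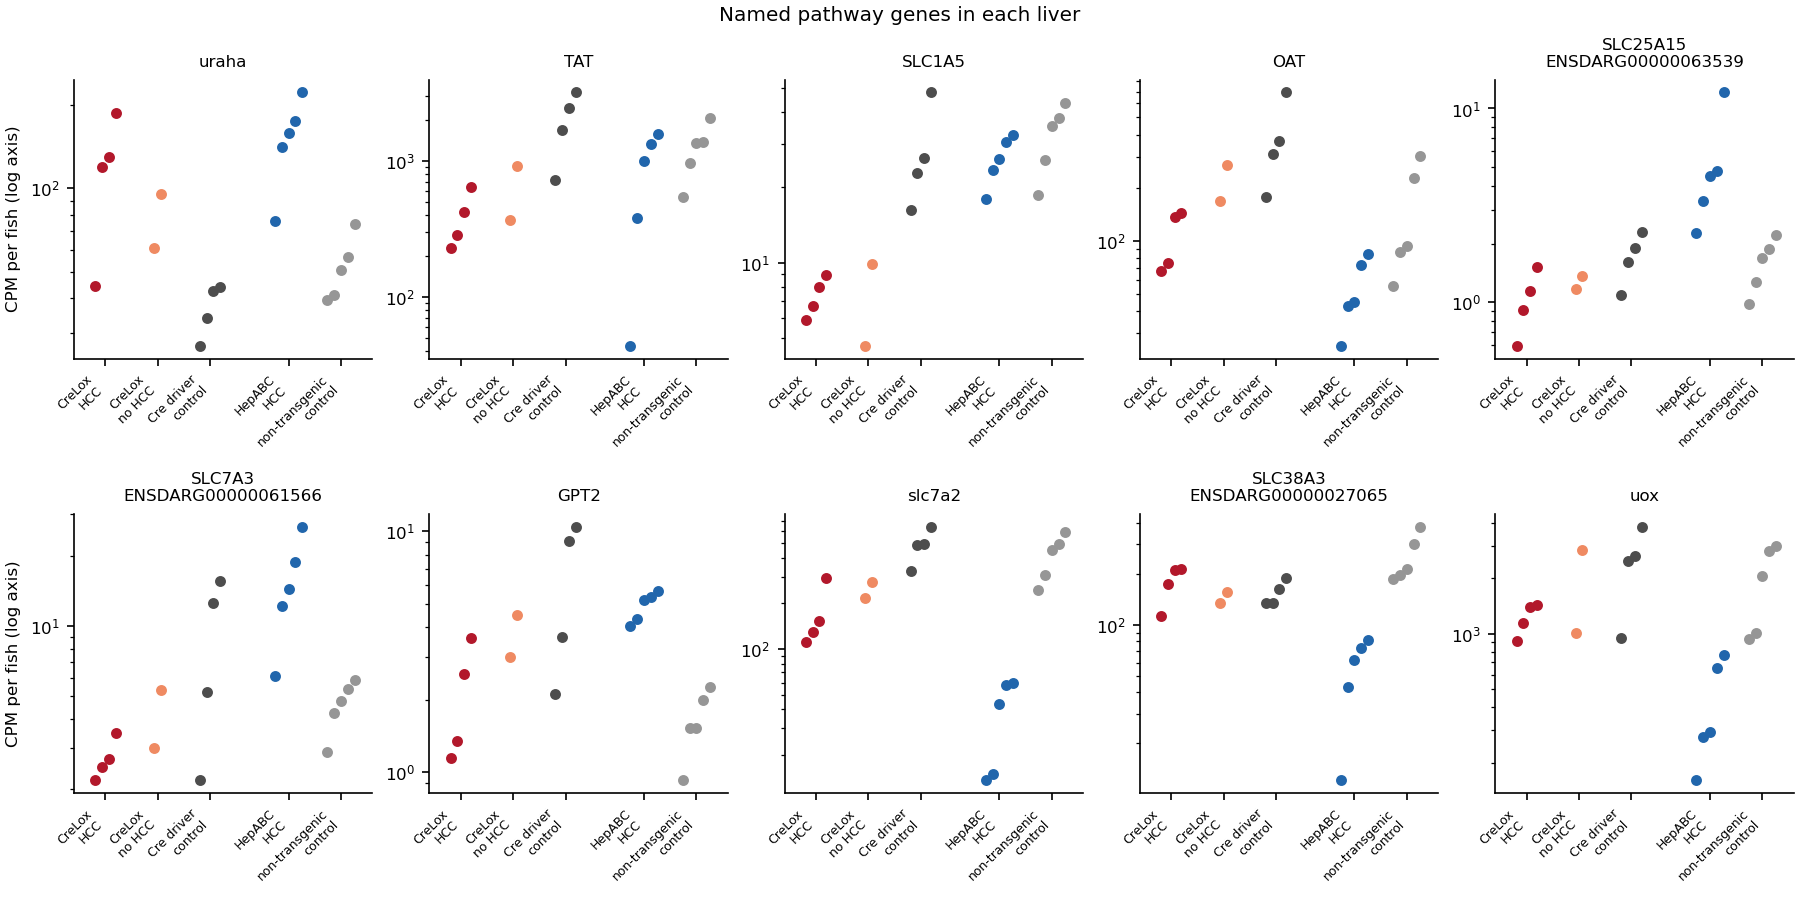
CPM (vertical axes, log scale) of the 10 pathway genes that the naming rule selected, 1 point per fish, in all 5 groups. slc7a2 is lower in CreLox HCC than in Cre driver controls and lower in HepABC HCC than in non-transgenic controls in every liver, and uraha is higher in both.

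Across the models, 14 of 97 other pathway rows differed in change, 7 with a higher and 7 with a lower value in HepABC, beside 11.3% of all genes tested. Such differences include any between the control groups. The differences of SLC25A15 ENSDARG00000063539 (2.46), GPT2 (3.11) and SLC7A3 ENSDARG00000061566 (3.47) were positive, and those of SLC38A3 ENSDARG00000027065 (-2.43), GAMT (-1.81), which completes creatine synthesis, and AMDHD1 (-1.87) were negative, with adjusted p of at most 0.0277 for each by edgeR. slc7a2 fell and uraha rose in each model's own comparison. Both were past the threshold in 17 of 17 alternatives in HepABC HCC, but each in only 9 of 18 in CreLox HCC. OAT fell in each model, with the HepABC losses given above and a call in 8 of 18 alternatives in CreLox HCC. In CreLox HCC its adjusted p by edgeR was 0.0528 on library size alone and 0.0517 with all 20 libraries.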

How the data were processed

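Gene counts of 20 liver libraries in 5 groups were analysed. The deposited values are counts of reads per Ensembl gene, without normalization, in 2 tables of 32520 genes. Per the paper's methods and the labels, the authors made strand-specific mRNA libraries, removed optical duplicates in the CreLox experiment, trimmed adapters, aligned 150-base read pairs with STAR 2.6.1b to GRCz11 and counted with featureCounts 1.6.3. Duplicates, kept or removed, can change the counts of abundant genes in 1 experiment and not in the other.

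Symbols were matched for 29201 identifiers. TMM factors, filterByExpr and edgeR 4.0.16's quasi-likelihood test in R 4.3.3 were applied to the 10 CreLox libraries, the 10 HepABC libraries and, for the difference between the models, all 20, without covariates. Adjustment was by Benjamini-Hochberg over every gene in a fit, with a threshold of 0.05. SEs of log2 fold changes were derived from the test, as the absolute log2 fold change over the square root of its F statistic. The 95% intervals are a t quantile times that SE on either side. The study's methods name 3 CreLox livers with HCC and the labels list 4, all of which were used. The scripts were tested on simulated counts. Alternatives were DESeq2 1.42.0, limma 3.58.1's voom, other scalings and filters, other sets of libraries, and each fish left out. Those for single pathway genes were added after seeing the data. Members and lists were chosen with earlier results of these data known. The pathway genes named were those past the threshold whose groups did not overlap and whose log2 CPM averaged 1 or more, taking in each comparison the 3 that rose most and the 3 that fell most. Of 124 list entries, 9 matched no symbol. No source says that fish of a group came from separate tanks or clutches, so p-values measure the spread between these fish. No 2 libraries of a group agreed within sampling noise (lowest chi-square per degree of freedom 59.7). Results of an item withheld from this text are not reported here.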

Additional observations from a re-analysis of the deposited data

Results flagged for a closer look

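Of 26 sets of 4 or 5 fish of 1 group in which a member had over 3 counts, 5 held a fish set apart by Dixon's test. Chance gives about 1 in 20 only where values are normal, which was not checked for CPM, so the 5 cannot be read against that rate. Among the 23 sets with more than 1 fish over 3 counts, 3 held such a fish. GLUL ENSDARG00000099776 was at 199.1 CPM in CreLox HCC fish 624. GLUL ENSDARG00000100003 was at 3.19 CPM in CreLox HCC fish 604 and at 100.8 CPM in HepABC HCC fish 317E11. Cre driver control 628 stood apart for arg1, at 0.405 CPM, and for ass1, at 0.912 CPM, where the other 3 controls had 0 or almost no counts, so that 1 fish with counts had to stand apart. It was also the highest control for GLUL ENSDARG00000100003, at 161 CPM. Its marker sums lay at 132700 CPM for hepatocyte rows, 53.3 CPM for exocrine pancreas rows and 885.1 CPM for biliary rows, the last 2 being the lowest of the 4 controls.

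The change in HepABC HCC exceeded that in CreLox HCC, by the test of the difference, for GLUL ENSDARG00000100003 by 4.31 on the log2 scale. Its control groups differed too, with means of 64.3 CPM in Cre driver controls and 12.1 CPM in non-transgenic controls. For ass1 the fitted difference was 8.70, which is no bound at counts near 0, was kept in the fit through the HepABC tumors, where it is high, ranged between 4.81 and 10.3 over the alternatives, and was 5.02 with an adjusted p of 0.286 by edgeR without control 628.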

How the results depend on the processing

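For CreLox HCC against Cre driver controls, the count of members called was 0 with TMM and edgeR, 2 with DESeq2's Wald test and 0 to 1 with each fish left out. The count of other pathway genes called there was 6, against 10 on library size alone, 19 with DESeq2, 11 with voom, and 0 to 12 with each fish left out. Over all genes, 707 of 16837 were called with TMM and edgeR, 1042 of 16837 on library size alone and 2049 of 25658 with DESeq2. voom called 737 of 16837, and 234 to 996 genes were called with each fish left out. For CreLox without HCC against controls, DESeq2 called 1 other pathway gene in place of 0, and 338 of 25658 rows over all genes in place of 53 of 16837. For HepABC HCC against non-transgenic controls, 0 members were called, against 4 on library size alone, 2 with DESeq2, 1 each without a filter, with at least 10 counts in every library, with voom and with all 20 libraries, and 0 to 1 with each fish left out. Other pathway genes called there numbered 35, 53 on library size alone and 28 to 41 with each fish left out. Over all genes, 5342 of 15864 were called with TMM and edgeR, 8809 of 15864 on library size alone and 6734 of 25832 with DESeq2. voom called 5918 of 15864, and 4524 to 5730 were called with each fish left out. Without a filter 5327 of 25832 were called, with at least 10 counts in every library 4482 of 12514, and with all 20 libraries 6744 of 18645. The difference between the models was called for 2 members and for 1 to 3 with each fish left out. Over all genes it was called for 2115 of 18645, and for 1211 to 2374 with each fish left out. ass1 is among the members counted without a filter, with DESeq2, with all 20 libraries, with fish left out and in the difference between the models, and supports no change there. The library size shift comes with a median of all genes of 0.87 in place of 0, and the cause of the other changes was not tested. No paired analysis was possible because no fish or replicate number is shared between groups. The 2 CreLox livers without HCC, and counts near 0 for cps1, otc, arg1 and rhbg, limit what could be detected.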
